A study of Mus musculus with 21 samples.

Results

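Collagens were followed here in single muscle fibers of CD1 wild-type mice aged 3 months, with each of 21 fibers hybridised to its own Agilent mouse gene expression array. The array named 41 collagen genes of 35527 gene or transcript names in all, read by 63 of its 55681 gene probes. They were chosen by symbol alone, as every gene probe whose symbol read Col, a number, a and a number. There were 11 type 1 fibers, slow and oxidative, taken from the soleus, and 10 type 2B fibers, fast and glycolytic, taken from the extensor digitorum longus (EDL). Each fiber was typed by gel electrophoresis of its myosin heavy chains, and no group was treated. Fiber type and muscle cannot be told apart, because every type 1 fiber was a soleus fiber and every type 2B fiber an EDL fiber. The fibers came from 9 mice, of which 6 gave type 1 fibers, 6 gave type 2B fibers and 3 gave both, and mouse 3 alone gave 7 fibers. The labels call the mice male, whereas the methods of the study name females for fiber isolation, so the sex is not settled.

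Collagens are proteins of the extracellular matrix built as triple helices of 3 chains, in which glycine recurs at regular intervals along the chain. Fibrillar collagens form the fibers of connective tissue, type IV collagen forms the network of basement membranes, type VI forms beaded filaments next to the basement membrane of muscle fibers, and FACIT collagens sit on the surface of fibrils. Multiplexins are collagens of basement membrane zones, and transmembrane collagens are anchored in the cell surface. In skeletal muscle most interstitial collagen is known to be made by fibroblasts between the fibers, while fibers themselves express some basement membrane and membrane-bound collagens. Each array held the RNA of a fiber with whatever cells stayed attached to it, so fewer attached cells and less RNA per cell cannot be told apart.

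The collagen probes that differed between fiber types, and those that read the collagen repeat, are given first, 5′ to 3′ as deposited, with their mm9 coordinates. The opening set is coding sequence, shown because the array read the collagen repeat itself or joined separate exons. Capitals mark GGN, the glycine codon, in the reading frame of the repeat or, for Col23a1, in the only frame free of stop codons.

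Col23a1 A_51_P457557, chr11:51381425-51382971, plus strand: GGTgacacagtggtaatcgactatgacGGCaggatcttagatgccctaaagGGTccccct
Col15a1 A_55_P2060386, chr4:47283786-47283845, plus strand: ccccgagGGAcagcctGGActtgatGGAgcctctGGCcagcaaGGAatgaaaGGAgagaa
Col25a1 A_55_P2107711, chr3:130270497-130270556, plus strand: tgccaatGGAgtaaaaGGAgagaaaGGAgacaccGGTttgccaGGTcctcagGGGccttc

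The Col23a1 probe covered 60 bases of RNA but 1547 bases of genome, so it crossed an intron. The Col15a1 and Col25a1 probes each held 6 GGN codons spaced 9 bases apart, and only 7 of the 55681 gene probes on the array (0.0126%) showed this spacing in full. The next set shows 30 bases of each other collagen probe that differed between fiber types, with the polyadenylation signals AATAAA and ATTAAA in capitals.

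Col3a1 A_51_P515605, chr1:45405589-45405648, plus strand: ataagccaaactctctgaaaccccagcaaa
Col5a2 A_55_P2104894, chr1:45431204-45431263, minus strand: ctatgcgttagaaaactcaggctagtgatt
Col6a1 A_55_P2128153, chr10:76171538-76171597, minus strand: gctatctctgctAATAAAggtttccatttt
Col7a1 A_55_P2064292, chr9:108886861-108886920, plus strand: aggggacggggcATTAAAgctgctgtttta
Col9a1 A_55_P1999532, chr1:24259125-24259184, plus strand: cccactacattcAATAAAattggtgcttaa
Col23a1 A_52_P441036, chr11:51396885-51396944, plus strand: acacgcccagtagtgaagctgctcactgtg
Col23a1 A_55_P2086978, chr11:51394105-51394164, plus strand: ttcagcacgcttccagaagccaccctgaca

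The letters AATAAA stood in 9 of the 63 collagen probes (14.29%) and in 10.06% of all gene probes on the strand deposited, and in 1 collagen probe (1.59%) and 3.74% of all probes on the opposite strand. The annotation used here gave no exon or UTR boundaries in this build, so the place of these probes within their transcripts is given only as far as the letters show it.

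The slow myosin bore out the labels with 1 exception, while Myh2 varied widely among the type 1 fibers. Myh7, the slow myosin of type 1 fibers, had normalized log2 signals between 15.53 and 16.28 in the other type 1 fibers but 9.22 in type 1 fiber S6.4, in which Myh2, the type 2A myosin, stood at 15.22. Results are therefore given also without the fiber labelled S6.4. Type 1 fiber S16.3 held Myh2 at 13.03 beside Myh7 at 15.82. In the other type 1 fibers Myh2 ran from 1.73 to 9.14, with no value in S15.2, and in type 2B fibers it was at most 3.99. Myh4, the type 2B myosin, stood at 8.61 in type 1 fiber S7.3 and at 14.42 or more in type 2B fibers. Slide 1, with 8 of the arrays and 4 fibers of each type, was brighter than the other slides (75th percentile of processed signal 335 to 520 against 52.8 to 180), no spot was saturated, and the share of spots well above background ranged from 38.7% to 79.8% between fibers.

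Detection of collagen RNA was broad but unequal. A probe was counted as detected where the scanner software called it well above background. Of the 41 genes, 13 had a probe detected in all 21 fibers, 24 were detected in some fibers, and 4 in none. Between 19 and 44 collagen probes were detected in a type 1 fiber (median 29) and between 16 and 37 in a type 2B fiber (median 28.5), and the fibers of slide 1 had the highest counts in both types. Genes read in every fiber included Col1a2 (a chain of type I collagen), Col4a2 (basement membrane), Col6a2 (microfibrils), Col7a1 (anchoring fibrils) and Col22a1 (a FACIT of the myotendinous junction). Col2a1 and Col9a3, both cartilage collagens, and Col8a1 and Col12a1 were well above background in no fiber.

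**Figure D1:**
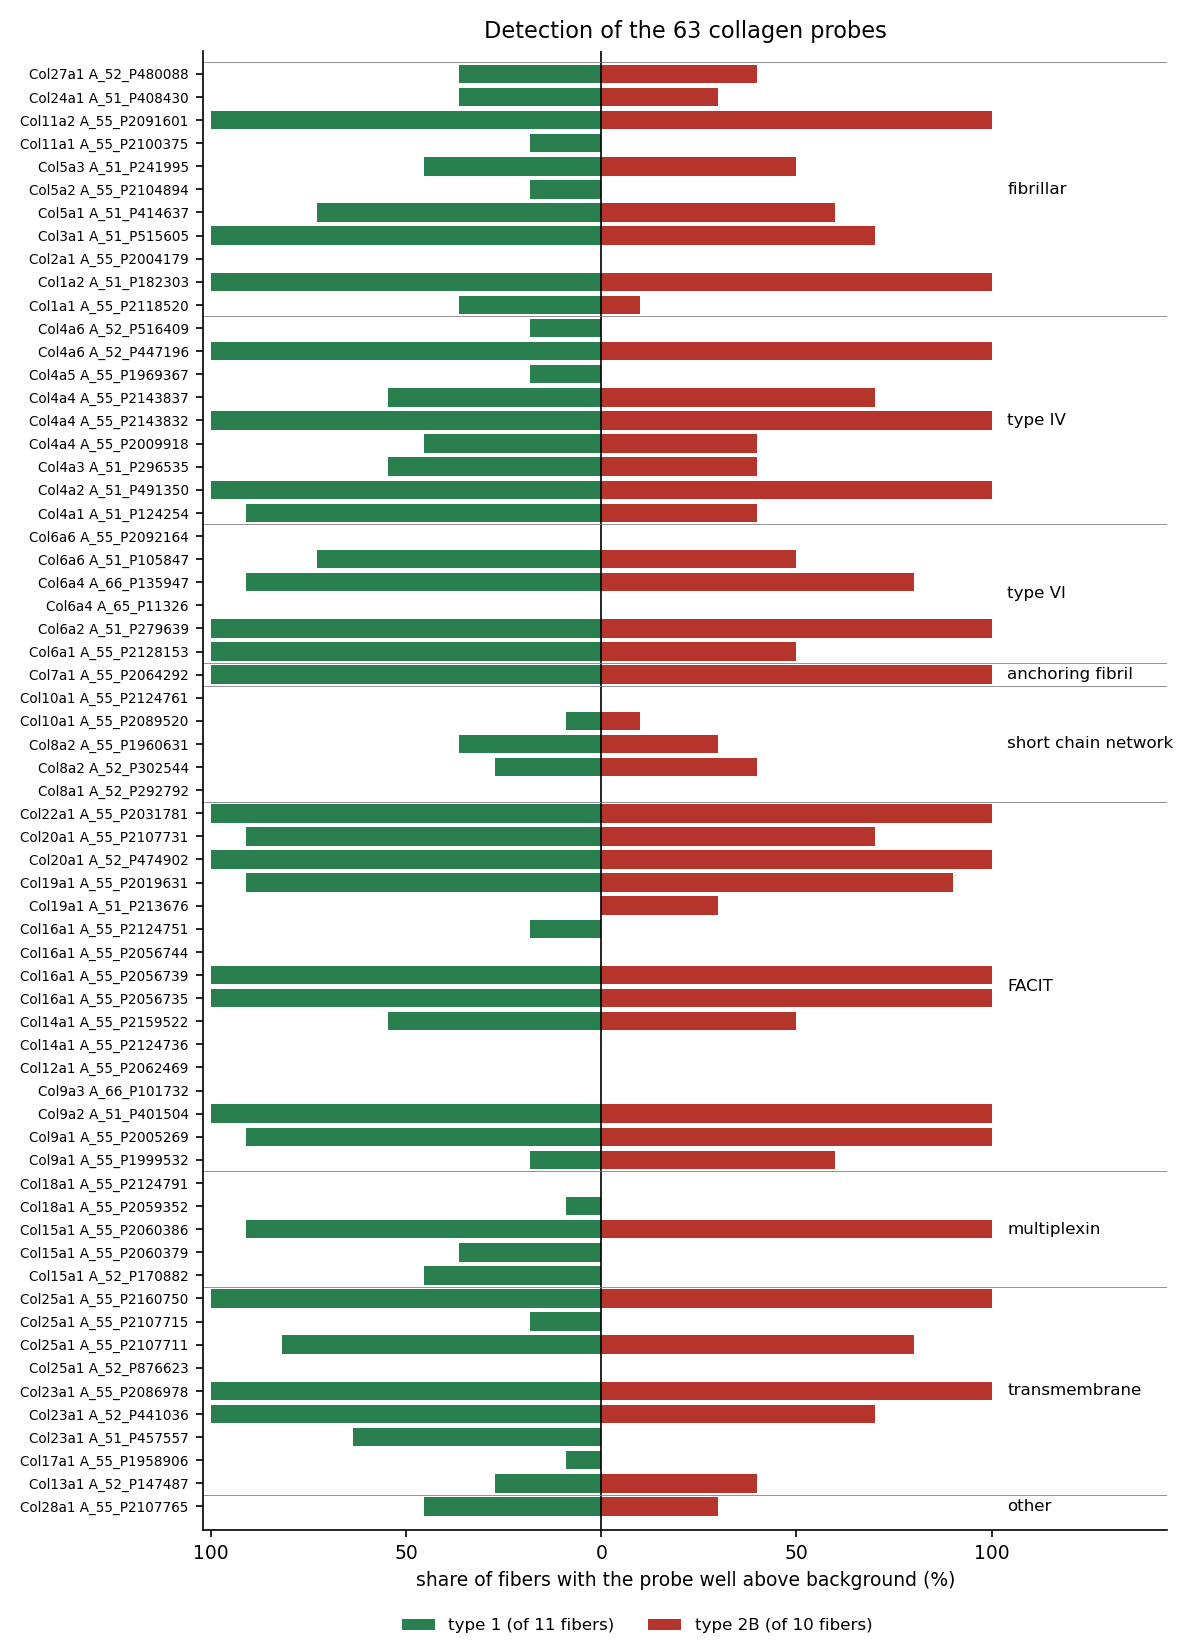
Share of fibers (%) in which each of the 63 collagen probes was well above background, to the left for the 11 type 1 fibers and to the right for the 10 type 2B fibers, grouped by collagen class. Most bars are alike on both sides, while those of Col3a1 (11 fibers against 7), Col6a1 (11 against 5), Col4a1 (10 against 4) and a Col23a1 probe (7 against 0) are longer for type 1. So are those of Col15a1 A_52_P170882 (5 against 0) and A_55_P2060379 (4 against 0). Bars of Col9a1 A_55_P1999532 (2 against 6) and Col19a1 A_51_P213676 (0 against 3) are longer for type 2B.

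Signals were quantile normalized on the log2 scale and compared with limma, with the mouse as a random block, over the 46925 probes above local background in at least 50% of the fibers of a type. Of the 63 collagen probes, 46 probes of 34 genes entered this test and 17 did not. At a Benjamini-Hochberg adjusted p of 0.05, 8 collagen probes of 6 genes differed (17.4% of those tested), beside 7.57% of all tested probes. Lower in type 2B were 6 collagen probes (13.04%, beside 4.09% of all probes), namely all 3 of Col23a1 and those of Col3a1, Col5a2 and Col6a1. Of these, Col23a1 A_51_P457557 met the 50% filter only in the type 1 fibers. Higher in type 2B were 2 probes (4.35%, beside 3.48% of all probes), of Col7a1 and Col9a1. None passed the Bonferroni adjustment that the study's methods used (1.43% of all probes did), by limma or by the methods' t-test. An unadjusted limma p under 0.05 was given by 10 of the 46 collagen probes (21.7%), beside 8675 of all 46925 (18.5%). The median difference, type 2B minus type 1, was 0.05 on the log2 scale over the 46 collagen probes and 0.03 over all tested probes, and 45.7% of the collagen probes against 47.7% of all lay below 0. Mouse means of the fiber types did not overlap at 4 collagen probes in which type 2B was lower (2.71% of all tested probes) and at 2 in which it was higher (2.25%), and single fibers at 1 lower and 0 higher (0.71% and 0.629%).

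**Figure D2:**
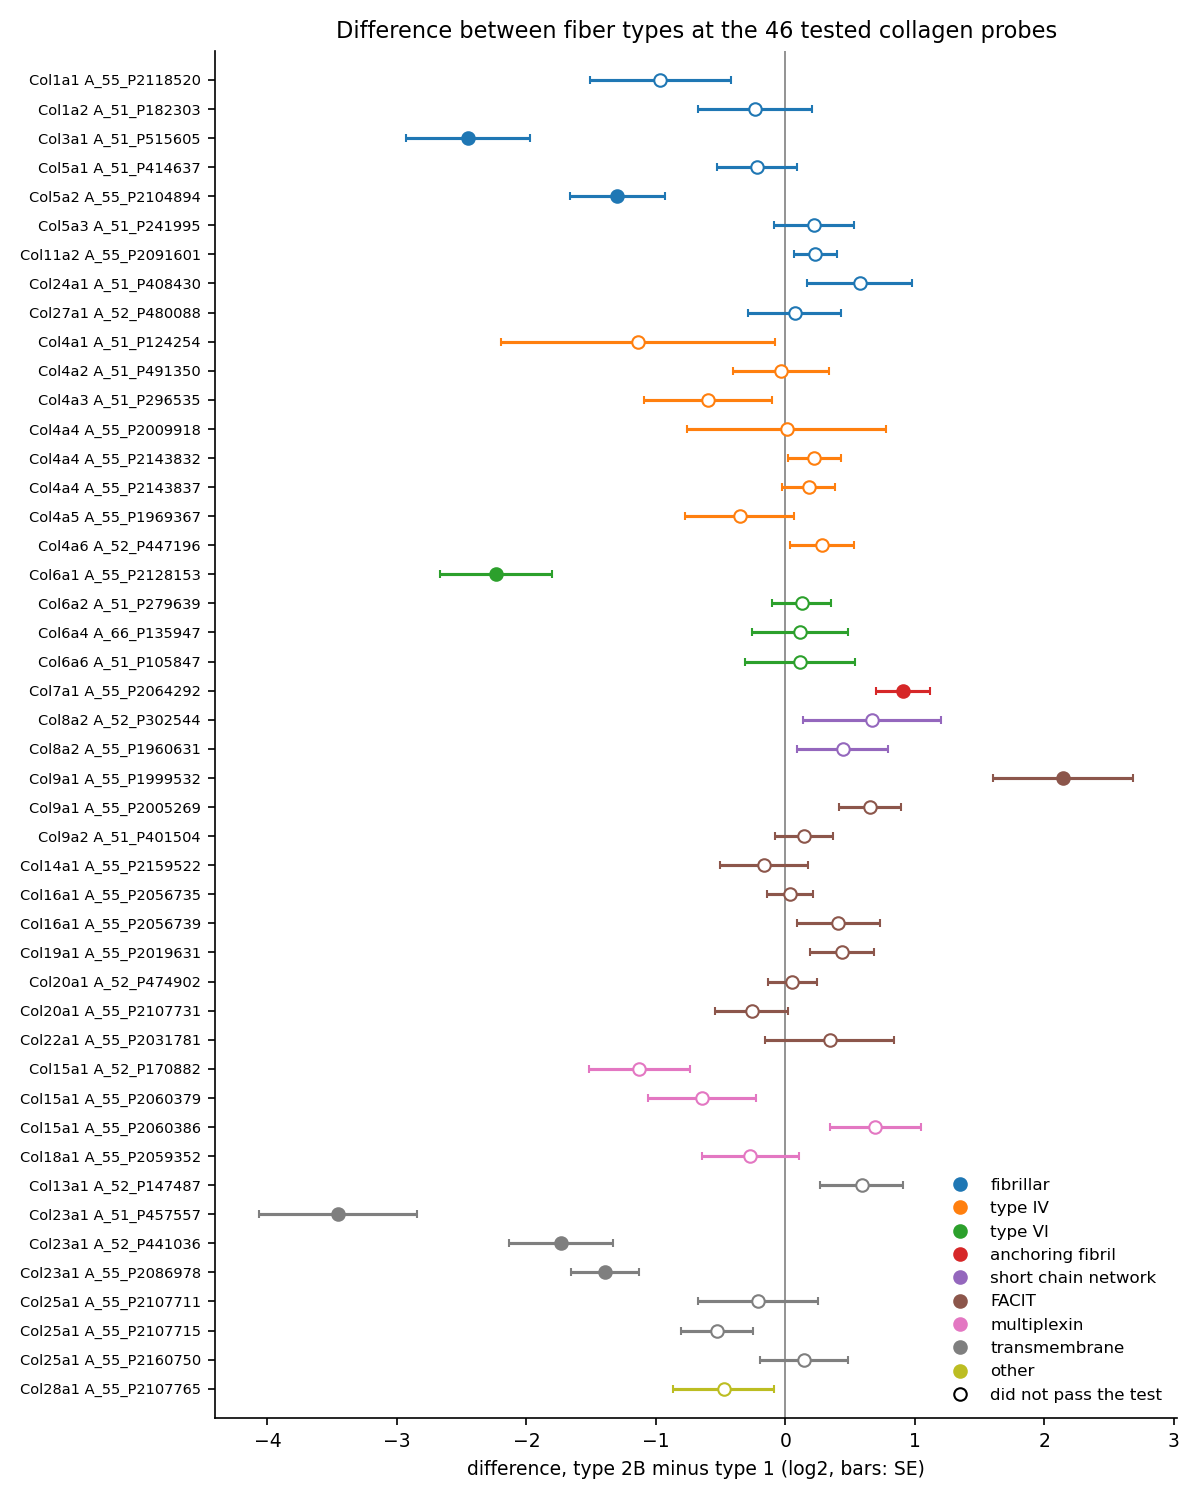
Fitted difference in log2 signal (type 2B minus type 1, with its SE) at the 46 tested collagen probes, coloured by class, with filled points for those that passed the Benjamini-Hochberg threshold. The 3 Col23a1 probes, Col3a1, Col6a1 and Col5a2 lie to the left, Col9a1 and Col7a1 to the right, and the other 38 between -1.14 and 0.70.

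Among the transmembrane collagens, Col23a1, a collagen of the plasma membrane whose outer part can be shed, was lower in type 2B at all 3 of its probes. At the intron-spanning probe A_51_P457557 the log2 signal ranged from 1.63 to 7.61 in type 1 fibers (median 5.88) and from 1.63 to 2.49 in type 2B fibers (median 1.64). It was well above background in 7 of 11 type 1 fibers and in none of the type 2B fibers, and 9 type 1 fibers lay above every type 2B fiber, the exceptions being S6.4 and S10.10. It was positive over local background in 10 type 1 and 2 type 2B fibers, so it entered the test only through the type 1 fibers. The fitted difference was -3.46 (SE 0.61, limma Benjamini-Hochberg p = 0.00045), but since the dim group has only a bound, the signal was at least 1.73-fold higher in type 1. The call was lost with unflagged spots set to missing (-3.27, p = 0.12 by the same adjustment).

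The other Col23a1 probes measured the gene in both types. At A_55_P2086978 type 1 fibers ranged from 7.06 to 9.29 (median 9.002) and type 2B fibers from 6.44 to 8.10 (median 7.21), with 8 type 1 fibers above all type 2B fibers and S6.4 the lowest of its group. The mean over mice was 8.593 ± 0.416 (SD, n = 6 mice) in type 1 and 7.202 ± 0.404 (n = 6) in type 2B. The fitted difference was -1.39 (SE 0.26, 2.63-fold, limma Benjamini-Hochberg p = 0.00099). At A_52_P441036 the ranges were 5.47 to 7.78 (median 6.80) and 1.84 to 5.94 (median 5.24), with a fitted difference of -1.73 (SE 0.40, 3.32-fold, limma Benjamini-Hochberg p = 0.0064). Mouse means did not overlap at these 2 probes, and the exact two-sided permutation p over the 924 ways of dividing 6 against 6 mouse means was 0.0022 for each, the smallest it can give. For the intron-spanning probe it was 0.013, with mouse means that overlapped. Without S6.4 the differences were -3.71, -1.55 and -1.85 in the order described.

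The other transmembrane collagens gave no call. Col13a1, which has a role at the neuromuscular junction, differed by 0.59 (SE 0.32), the 3 tested probes of Col25a1, needed for motor innervation of muscle, by -0.53 to 0.14, and Col17a1 was detected in 1 fiber.

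Among the fibrillar collagens, Col3a1, the chain of type III collagen in reticular fibers, was lower in type 2B. Its log2 signal ran from 6.04 to 10.3 in type 1 fibers (median 8.04) and from 4.57 to 6.77 in type 2B fibers (median 5.899). All but 2 type 1 fibers, S6.4 and S11.3, lay above every type 2B fiber, and the highest was S16.3. In S16.3 Rgs5 of pericytes (9.67) and Pecam1 of endothelial cells (7.60) were also the highest of all fibers. Flt1 (7.31) and Cdh5 (5.24) of endothelial cells were also highest in S16.3. So was Pdgfrb of pericytes (3.72), though below the lowest signal well above background on that array (3.95). Other markers were not raised there, and Myh11 of smooth muscle (6.14) was the lowest of all fibers. Emcn of endothelial cells was at 5.36 in S16.3 and reached 7.02 elsewhere. Mouse means were 8.46 ± 1.12 (SD, n = 6) and 5.68 ± 0.61 (n = 6) and did not overlap (exact permutation p = 0.0022). The fitted difference was -2.45 (SE 0.48, 5.47-fold, limma Benjamini-Hochberg p = 0.0014), -2.68 without S6.4, and -2.11 (p = 0.0064 by the same adjustment) without S7.2 and S16.3.

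The other fibrillar chains gave less. Col5a2, which joins type I fibrils as a type V chain, passed the test with a difference of -1.30 (SE 0.37, limma Benjamini-Hochberg p = 0.028). It was well above background in 2 type 1 fibers and no type 2B fiber, so no fold is given, and the call was lost in 13 of 17 other ways of processing and on leaving out any of 4 type 1 fibers (S7.2, S15.2, S10.8 or S9.4) or any of mice 2, 5 and 8. Col1a2, in every fiber well above background, ranged from 6.90 to 11.6 in type 1 (median 8.29) and 7.15 to 9.15 in type 2B (median 8.40), a difference of -0.23 (SE 0.44) that turned to 0.20 without S7.2 and S16.3. Col1a1, its partner in type I collagen, was well above background in 4 type 1 fibers and 1 type 2B fiber and differed by -0.96 (SE 0.54, limma Benjamini-Hochberg p = 0.37). The remaining 5 tested fibrillar probes, of Col5a1, Col5a3, Col11a2, Col24a1 and Col27a1, differed by between -0.22 and 0.58.

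Of type VI collagen, Col6a1 was the collagen probe whose fibers separated fully by type, the only such probe among the 46 tested (0.71% of all tested probes did so in this direction). It ranged from 5.65 to 9.59 in type 1 fibers (median 6.55) and from 3.63 to 5.31 in type 2B fibers (median 4.98). S11.3 and S5.9 stood highest, and S6.4 was the lowest type 1 fiber yet above all type 2B fibers. Mouse means were 7.145 ± 1.201 (SD, n = 6) and 4.67 ± 0.64 (n = 6, exact permutation p = 0.0022), and the fitted difference was -2.24 (SE 0.43, 4.71-fold, limma Benjamini-Hochberg p = 0.0012). The probe was well above background in 5 of the 10 type 2B fibers, and with normexp background correction the difference was -1.13 (p = 0.014 by the same adjustment). Col6a2, the partner chain in the same filaments, was well above background in every fiber and differed by 0.13 (SE 0.23). The tested probes of Col6a4 and Col6a6 both differed by 0.12 or less. The difference between the Col6a1 and Col6a2 responses was not itself tested.

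**Figure D3:**
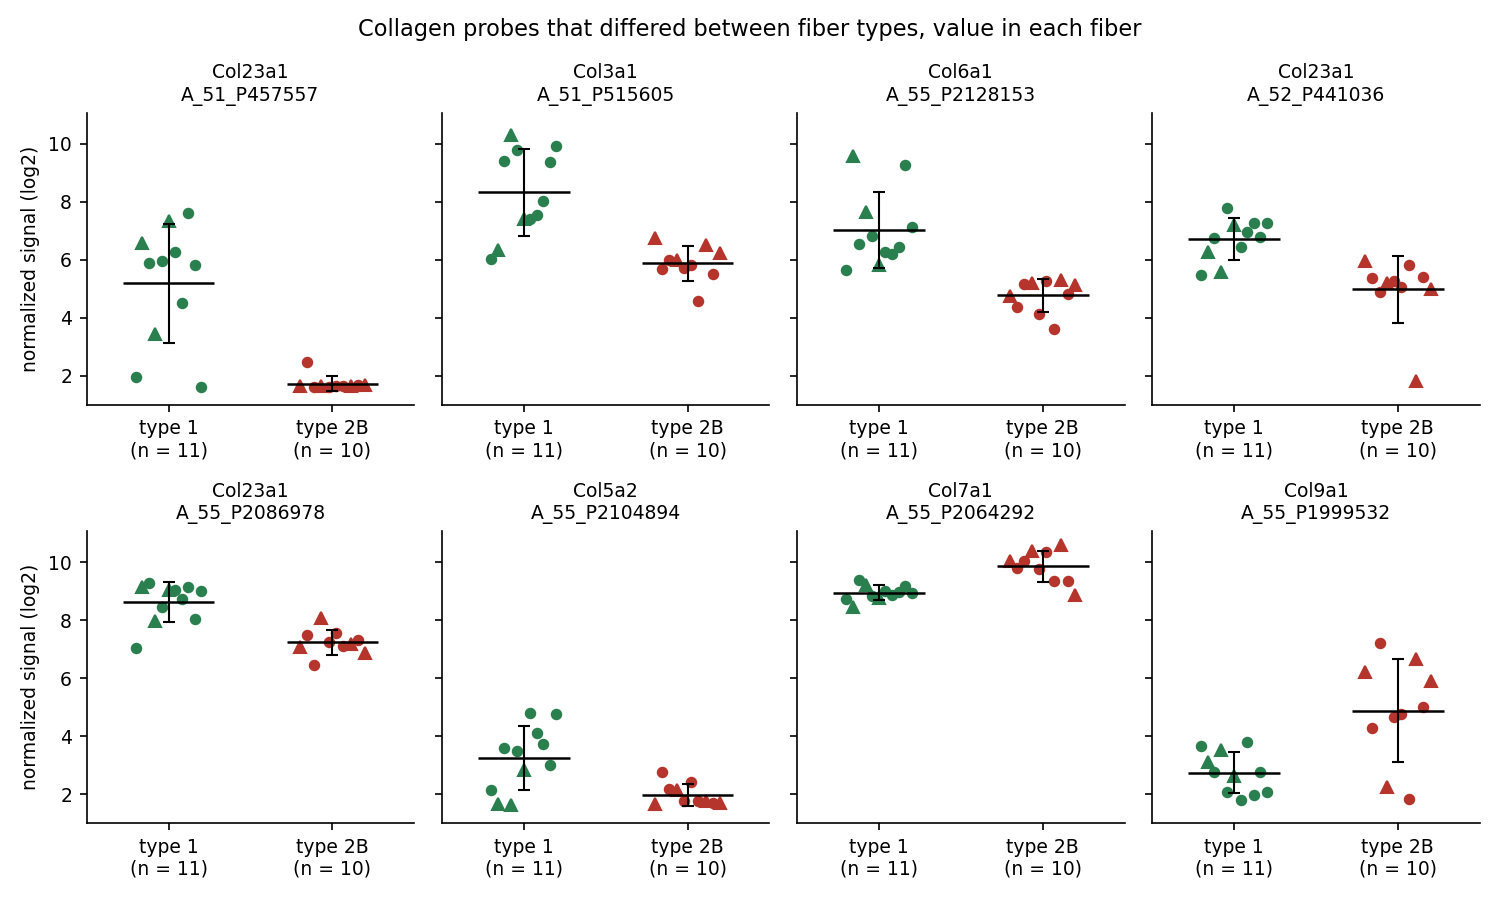
Normalized log2 signal of the 8 collagen probes past the threshold in each type 1 fiber (green) and type 2B fiber (red), with triangles for fibers of mouse 3, bars at the mean of the fibers and whiskers of 1 SD. Col6a1 alone shows no overlap of fibers, and for Col7a1 and Col9a1 the type 2B fibers stand higher.

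Collagen VII and collagen IX were the genes higher in type 2B. Col7a1, the collagen of the anchoring fibrils that tie epithelia to the tissue beneath, was well above background in all 21 fibers, from 8.46 to 9.39 in type 1 (median 8.95) and from 8.89 to 10.6 in type 2B (median 9.92). Of the type 2B fibers, 7 lay above every type 1 fiber. Mouse means were 8.96 ± 0.14 (SD, n = 6) and 9.85 ± 0.37 (n = 6, exact permutation p = 0.0022, no overlap), and the fitted difference was 0.91 (SE 0.21, 1.88-fold, limma Benjamini-Hochberg p = 0.0059). The call was lost without mouse 3 (0.79, limma Benjamini-Hochberg p = 0.063).

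Col9a1, a FACIT chain known from cartilage, was measured by 2 probes. At A_55_P1999532 the signal ranged from 1.81 to 3.79 in type 1 (median 2.76) and from 1.83 to 7.23 in type 2B (median 4.88), and it was well above background in 2 and 6 fibers. The difference was 2.15 (SE 0.54, limma Benjamini-Hochberg p = 0.013), with mouse means that overlapped (exact permutation p = 0.028), and it lost the call without mouse 2 (1.93, p = 0.077) or mouse 3 (2.06, p = 0.092 by the same adjustment), and in the fit on means per mouse (1.90, p = 0.13). The second probe, A_55_P2005269, was well above background in 10 fibers of each type and differed by 0.65 (SE 0.24, limma Benjamini-Hochberg p = 0.11), with mouse means that did not overlap (exact permutation p = 0.0022). Of the other 8 tested FACIT probes none passed, with differences from -0.26 to 0.44, Col22a1 among them at 0.34 (SE 0.50) and Col19a1 at 0.44 (SE 0.25).

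Type IV collagen, the network of the basement membrane, gave no call among 8 tested probes, but the result for 1 of its chains depended on the fibers given to mouse 3. Col4a1 ranged from 3.78 to 8.94 in type 1 fibers (median 5.89) and from 2.80 to 12.51 in type 2B fibers (median 3.47). The 2 highest fibers of all were type 2B fibers of mouse 3, E13.3 at 12.51 and E8.3 at 9.97, while the other type 2B fibers, among them E14.3 and E15.3 of the same mouse, lay between 2.80 and 3.63. The difference was -1.14 (SE 1.06, limma Benjamini-Hochberg p = 0.64) over all fibers and -2.97 (p = 0.0006 by the same adjustment) without mouse 3. The mouse of E13.3 rests on the scanner file's label: the deposited table of normalized values has the columns of E13.3 and E12.5 exchanged against the scanner files, and which of the sources is right is not known. With the mice of these 2 fibers exchanged the difference over all fibers was -1.15. Within slide 2, which holds E13.3, it was 2.45, and within slide 3 it was -2.16. Col4a2, the partner of Col4a1 in the network, was well above background in all fibers and differed by -0.03 (SE 0.37).

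Among the multiplexins, the Col15a1 probes did not move alike. A_52_P170882 and A_55_P2060379 were well above background in 5 and 4 type 1 fibers and in no type 2B fiber, and differed by -1.13 (SE 0.39, limma Benjamini-Hochberg p = 0.09) and -0.64 (SE 0.41). The repeat probe A_55_P2060386, printed above, was well above background in 10 fibers of each type and differed by 0.70 (SE 0.35, p = 0.30 by the same adjustment). Col18a1, the source of endostatin, differed by -0.27 at its tested probe. Of the 8 collagen genes with several tested probes, 5 had all differences of 1 sign and 3 had mixed signs.

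**Figure D4:**
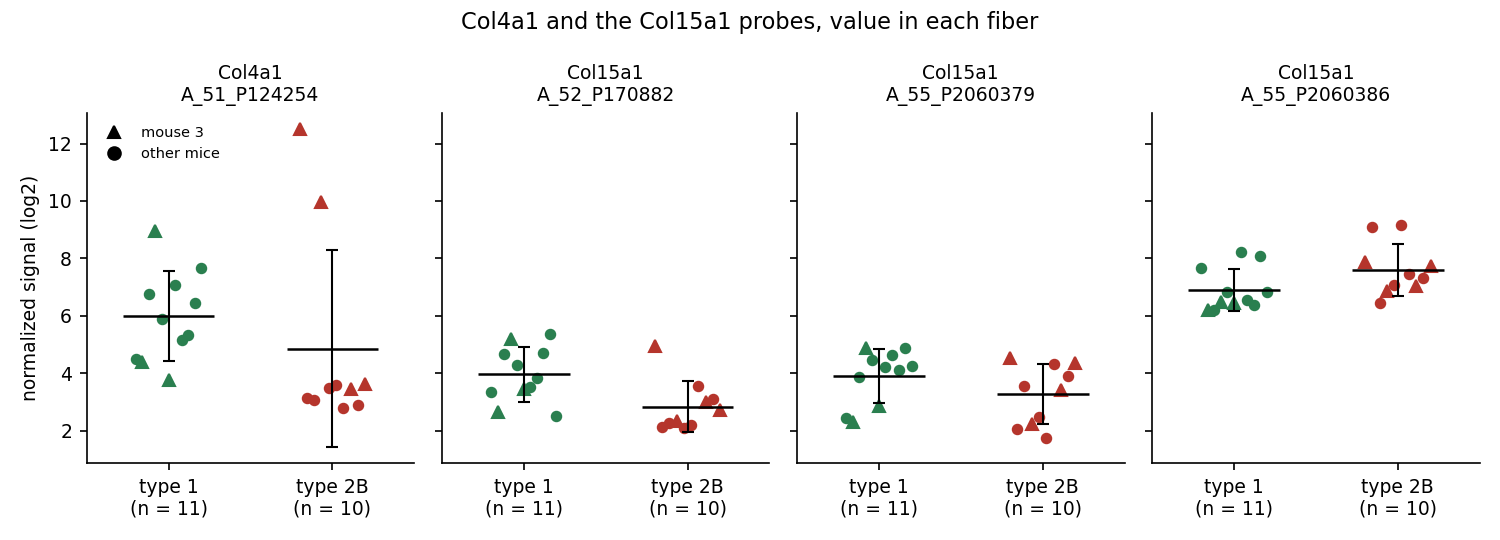
Normalized log2 signal of Col4a1 and of the 3 Col15a1 probes in each type 1 fiber (green) and type 2B fiber (red), with triangles for mouse 3, bars at the mean and whiskers of 1 SD. For Col4a1, E13.3 at 12.51 and E8.3 at 9.97 stand apart from the other type 2B fibers.

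None of the 8 calls changed direction within slides 1, 2 or 3 or with the slide as a block. Slides 4, 5 and 6 held fibers of 1 type only, so slide and fiber type cannot be told apart there. Within slide 1 the 3 Col23a1 differences were -4.07, -0.76 and -1.31 (A_51_P457557, A_55_P2086978 and A_52_P441036), within slide 2 they were -3.69, -2.17 and -1.74, and within slide 3 they were -1.54, -2.24 and -2.61. Col3a1 differed by -2.25, -1.41 and -1.93 on slides 1, 2 and 3, and Col6a1 by -2.05, -1.40 and -3.50. Col7a1 differed by 1.06, 1.08 and 1.12, Col9a1 by 1.05, 3.64 and 2.53, and Col5a2 by -0.96, -1.30 and -0.48. None of the 8 passed the threshold within a single slide, of 8, 4 and 4 fibers, and on slide 1 their limma Benjamini-Hochberg p ran from 0.10 to 0.48. With the slide as a block every call but Col5a2 (limma Benjamini-Hochberg p = 0.096) held, with differences between -3.43 and 2.40. With the mouse as a fixed block, which rests on the 3 mice that gave both types, only Col6a1 and Col23a1 A_51_P457557 still passed.

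Genes that make, process, bind and degrade collagen were read from 6 lists covering 80 genes on the array. Of 99 tested probes 9 were lower and 5 higher in type 2B, together 14.1% beside 7.57% of all tested probes, and 2 passed Bonferroni.

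The biosynthesis list, with 26 tested probes, had 4 lower and 1 higher (median 0.03). Leprel1, now named P3h2, the enzyme that hydroxylates prolines of collagen at the 3 position, was lower in type 2B, from 9.28 to 12.9 in type 1 fibers (median 10.44) and from 2.61 to 5.83 in type 2B fibers (median 3.98). The fiber types did not overlap, and the fitted difference was -6.71 (SE 0.50, limma Benjamini-Hochberg p = 1.9e-09). Its size is uncertain, because the signal in E7.7, E14.3 and E15.3 (3.63, 2.61 and 4.94) was near the floor. It lay below the lowest signal well above background on those arrays (5.61, 5.93 and 6.26). Other ways of processing gave Leprel1 differences from -6.99 to -4.41. Fkbp10, a collagen chaperone of the endoplasmic reticulum, was well above background in 7 type 1 fibers and no type 2B fiber, at least 1.04-fold higher in type 1 (limma Benjamini-Hochberg p = 7.6e-08). Creb3l1, a transcription factor that drives collagen genes in bone, fell by 1.89 from type 1 to type 2B (SE 0.29, 3.70-fold), and P4ha2, a prolyl 4-hydroxylase, fell by 0.98 (SE 0.29). Mia3, which loads collagen VII into transport carriers, rose by 0.85 (SE 0.24). P4ha2 and Mia3 each lost the call in 8 of 18 other ways of processing. Leaving out each fiber in turn kept the call of P4ha2 for 11 of 21 fibers and that of Mia3 for 17, and leaving out each mouse kept them for 2 and 5 of 9 mice. P4ha2 also lost it without S7.2 and S16.3 (p = 0.06 by the same adjustment).

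Processing and crosslinking, with 23 tested probes, had 1 lower and 1 higher probe (median 0.03). Tll1, a procollagen C-proteinase, was lower in type 2B at A_55_P2178327 (-1.43, SE 0.23), which was well above background in 4 type 1 fibers and no type 2B fiber. Its other probe, A_55_P2178324, was well above background in all 21 fibers and differed by 0.23 (SE 0.27, limma Benjamini-Hochberg p = 0.73). A probe of the crosslinking enzyme Lox was higher (1.47, SE 0.44), though it was well above background in 1 fiber, and lost the call in 12 of 16 other ways of processing. In type 1 fibers the Lox signal lay between 1.65 and 1.77. The lowest signal well above background on any type 1 array was 2.57, so the size of the Lox difference is not known. Its call was kept for 6 of 21 fibers and 2 of 9 mice left out in turn, and was lost without S7.2 and S16.3.

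Turnover, with 12 tested probes, had 1 lower and 2 higher (median 0.14). Mmp2, a gelatinase, was well above background in 6 type 1 fibers and no type 2B fiber, at least 1.16-fold higher in type 1 (limma Benjamini-Hochberg p = 0.0011). Both probes of Timp2, an inhibitor that also binds the Mmp2 proenzyme, were higher in type 2B, at A_65_P12392 with a range of 9.48 to 11.7 against 6.91 to 9.77 in type 1 (2.04, SE 0.38) and at A_52_P540219 by 1.05 (SE 0.29).

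Among the matrix partners, Nid1, which links laminin to type IV collagen, was called at A_55_P2084303 and at no other of its probes. That probe was well above background in 6 type 1 fibers and no type 2B fiber, at least 1.49-fold higher in type 1 (limma Benjamini-Hochberg p = 0.013). Its highest fibers were S16.3 (6.87) and S7.2 (6.70), without which the difference was -1.62 (p = 0.049 by the same adjustment). The Nid1 call was lost in 7 of 18 other ways of processing. Lama5, a laminin chain, was higher in type 2B (1.22, SE 0.38). Nid1 and Lama5 gave the only calls among 16 basement membrane probes (median -0.66). Of 10 interstitial probes (median 0.01), Thbs2, a matricellular regulator of collagen fibrils, was called, well above background in 6 type 1 fibers and no type 2B fiber and at least 2.14-fold higher in type 1 (limma Benjamini-Hochberg p = 0.0029). Of 12 receptor probes (median -0.32), Dag1, which encodes dystroglycan, was called (-0.76, SE 0.23, limma Benjamini-Hochberg p = 0.049). Dag1 lost the call in 14 of 18 and Lama5 in 12 of 18 other ways of processing. With each fiber left out in turn Dag1 kept its call for 4 of 21 and Lama5 for 5, and with each mouse left out for 1 and 0 of 9. Dag1 also lost it without S7.2 and S16.3.

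**Figure D5:**
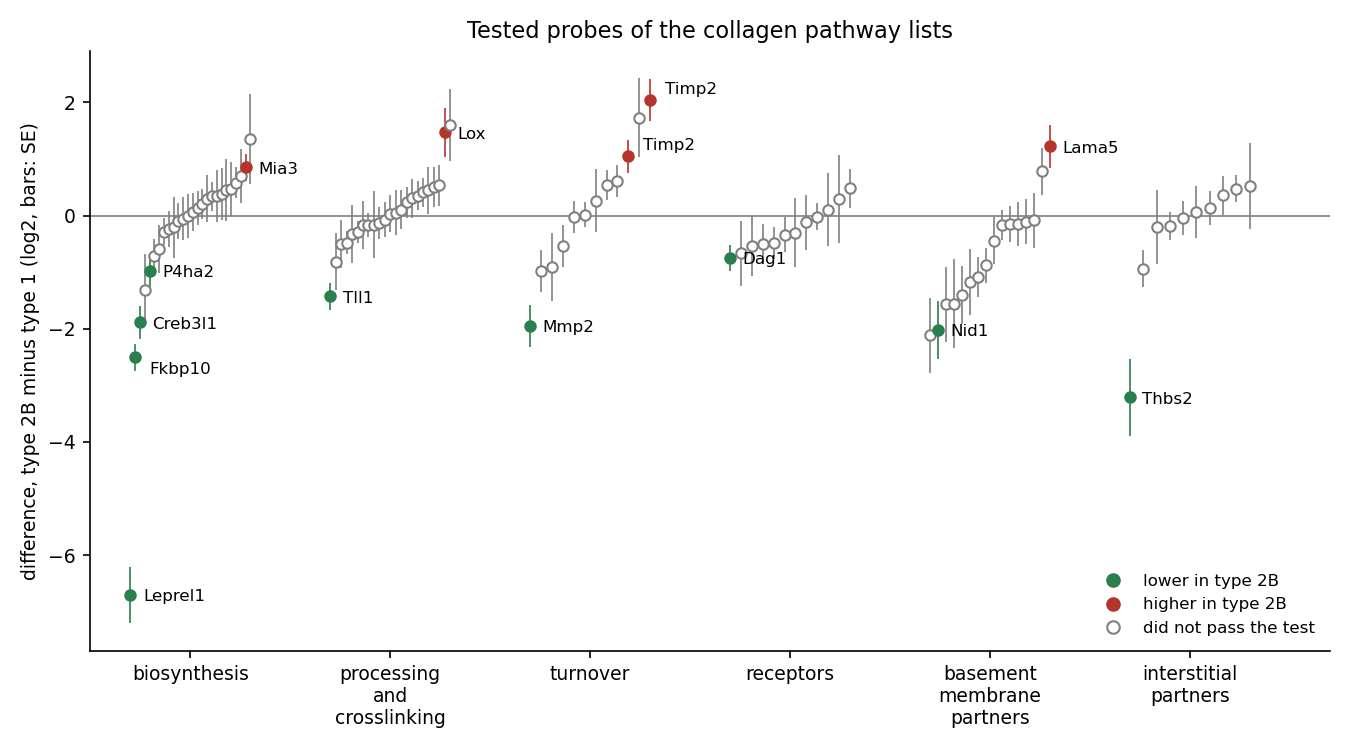
Fitted log2 difference (type 2B minus type 1, with its SE) of the 99 tested probes in the 6 lists of collagen-related genes, with called probes filled and named. Leprel1 at -6.71 lies far below the rest, and both Timp2 probes are among the highest.

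Markers of other cell types were read beside these genes. Of 5 tested fibroblast probes none was called, Pdgfra and Lum were well above background in no fiber, Dcn in 3 type 1 and 1 type 2B fibers, and the summed fibroblast signal spanned 305 to 4436 in type 1 and 326 to 6564 in type 2B fibers. Single probes set the highest of these sums, Pi16 at 12.03 in type 1 fiber S5.9 and Cd34 A_55_P2009225 at 12.55 in type 2B fiber E10.4. The sums therefore do not measure the list as a whole. Of the tenocyte genes Tnmd was well above background in no fiber, Mkx differed by -0.31, and Scx was lower in type 2B by 0.85 (SE 0.20, limma Benjamini-Hochberg p = 0.0067), with a summed signal of 547 to 1131 in type 1 and 299 to 643 in type 2B fibers. Scx was the brightest tenocyte probe in every fiber, so the tenocyte sum mainly repeats the Scx signal. Of the satellite cell list 3 of 5 tested probes, all of Ncam1, were lower in type 2B (-2.50 to -2.08). Pax7 differed by -1.37 without passing, and Myf5 was well above background in no fiber. Myod1 was not called, and its highest signals were alike, at 12.92 in type 1 fiber S5.9 and 12.06 in type 2B fiber E9.6. Myod1 was the brightest probe of the list in both those fibers. The summed signal of the list, 1596 to 8486 against 649 to 4620, therefore does not show the list as a whole to be lower. No tested probe of the endothelial, pericyte and smooth muscle, Schwann cell, blood or adipocyte lists was called. Single markers of these lists stood apart in type 1 fibers S7.2 and S16.3, an observation made after the values were seen. Kdr, a receptor of endothelial cells, was at 10.41 and 8.67 in these fibers and at most 4.87 in the others at probe A_51_P316553, while its other probe showed no such gap. Rgs5, a pericyte marker, was at 6.26 and 9.67 (at most 3.11 elsewhere), and the haemoglobin gene Hba-a1 at 12.94 and 11.79 (at most 8.298). Fabp4 of adipocytes and capillaries was at 9.81 and 10.098 (at most 3.74), and Dcn at 7.93 and 7.55 (at most 4.80). Dpt, Flt1, Pecam1 and Hbb-b1 were also higher in both fibers than in any other. The remaining probes of these lists and of the fibroblast list were not. Among them were Adipoq (4.86 and 5.24, up to 5.76 elsewhere), Plin1 (5.52 and 4.70, up to 7.19) and Acta2 (6.45 and 7.68, up to 8.14). S16.3 was also the highest of all fibers for Col3a1, Col1a2 and Col1a1 and the highest type 1 fiber for Col4a1. Without both fibers, an alternative added after seeing the data, all 8 collagen calls held, with 6 lower and 2 higher, and 7 lower and 4 higher probes were called in the pathway lists. The part of Scx- or Ncam1-expressing cells in the lower Col3a1, Col6a1 and Col23a1 signals was not tested.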

How the data were processed

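RNA of single fibers was amplified by the authors as whole-transcriptome cDNA, labelled with Cy3 and hybridised to 1-colour Agilent arrays. The deposited values are scanner intensities: the processed signal of Agilent Feature Extraction 10.7.3.1, after background correction by the authors' software, with its flags. The deposited table of the authors' normalized log2 values holds long non-coding RNA features and no collagen probe, and its columns for E13.3 and E12.5 follow each other's scanner files, so it was not used for values. Spots flagged as outliers were left out, signals were quantile normalized, log2 transformed and averaged per probe. Probes positive and significant over local background in at least 50% of the fibers of a type were compared by limma 3.58.1 (R 4.3.3), where fibers of 1 mouse were allowed to correlate (duplicateCorrelation), with Benjamini-Hochberg adjustment over all of them. Exact permutation tests used means per mouse, without regard to the 3 mice that gave both types. A bound of the form at least N-fold sets the mean of the bright group against, for each dim fiber, the higher of its own signal and the lowest signal well above background on that array. The number of arrays limits the precision. On simulated data for this comparison (46925 probes) 45% of probes changed by 1.5 and 91% of those changed by 3 on the log2 scale were recovered, with 11 false calls. Named were all called probes, chosen muscle collagens and the called probes of each list. The members and lists were chosen with earlier results of these data known. By accession, 58 of 63 collagen probes matched RefSeq genes (GRCm38.p6, names only). Alternatives covered scaling, background, filters, blocks, slides and each fiber or mouse left out.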

Additional observations from a re-analysis of the deposited data

Results flagged for a closer look

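In the type 2B group of 10 fibers, the highest or lowest fiber stood apart by Dixon's ratio (gap to the nearest fiber over the whole range) at 4 of the 28 probes examined, where chance gives about 1 in 20 groups. At Col23a1 A_51_P457557 fiber E10.4 was highest at 2.49 against 1.68 in the next fiber (ratio 0.937), and neither was well above background. At Col23a1 A_52_P441036 fiber E14.3 was lowest at 1.84 against 4.88 (ratio 0.740). At Col15a1 A_52_P170882 fiber E13.3 was highest at 4.95 against 3.54 (ratio 0.497), and without that fiber the difference of Col15a1 was -1.37 and passed the threshold (limma Benjamini-Hochberg p = 0.017). At Thbs2 fiber E11.9 was highest at 3.79 against 2.72 (ratio 0.528), and the probe was well above background in no type 2B fiber.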

How the results depend on the processing

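All 8 called collagen probes kept their direction under every alternative run. Against 6 lower and 2 higher collagen probes, with 9 lower and 5 higher pathway probes, there were 2, 0, 4 and 1 with the mouse as a fixed block, 5, 0, 4 and 1 with unflagged spots set to missing (4 of the 8 collagen calls, with Col15a1 A_55_P2060379 entering at p = 0.027 and Col23a1 A_51_P457557, Col5a2, Col7a1 and Col9a1 lost at 0.12 to 0.20), 1, 0, 4 and 0 on slide 1 alone (none of the 8, the 1 being Col15a1 A_52_P170882 at p = 0.027), and 5, 1, 4 and 2 on the other slides (6 of the 8). On slides 2 and 3 alone, alternatives added after seeing the data with 2 fibers of each type, all 4 counts were 0. The Welch t-test gave 1 higher collagen probe and 3 higher pathway probes. Higher pathway probes numbered 3 with means per mouse or scan day as a block, 2 with the slide as a block, 3 without mouse 7, 8 or 10, 2 without mouse 2, and 1 without mouse 3, 4 or 9. Higher collagen probes numbered 1 without mouse 2 or mouse 3, and 1 collagen probe passed Bonferroni without mouse 10. Leaving out each fiber in turn gave 5 to 7 lower and 2 to 3 higher collagen probes, 0 to 2 past Bonferroni, and 7 to 10 lower and 2 to 5 higher pathway probes. Without S6.4, 2 collagen probes (Col23a1) passed Bonferroni and all 8 collagen calls held. Col5a2 was then at -1.37, Col6a1 at -2.37, Col7a1 at 0.89 and Col9a1 at 2.22. The calls of Lox, Dag1 and Lama5 were lost without S6.4 (limma Benjamini-Hochberg p = 0.061, 0.068 and 0.069). Replicate numbers only name the fibers: deviations of same-numbered fibers correlated by -0.16 to 0.20 (10 pairs, 1 type 1 fiber closest to its own number), and with the replicate block 5 lower and 2 higher collagen probes and 2 higher pathway probes were called. Uncalled differences changed sign for Col1a2 (0.082 with the slide as a block, 0.042 with scan day, 0.14 on slide 1, 0.25 on slide 2, 0.019 without mouse 3, 0.20 without S7.2 and S16.3, and -0.40 to 0.067 leaving out each fiber), Col4a1 (0.021 with normexp, 0.0098 with the mouse fixed, 2.45 on slide 2) and Col15a1 A_55_P2060379 (0.092 on slide 3), and the called Mia3 for slide 2 alone (-0.073). The causes were not tested. Normexp shrank dim probes most, Col23a1 A_51_P457557 to -0.98, A_52_P441036 to -0.79, Col6a1 to -1.13, Col3a1 to -1.71 and Col9a1 to 0.59. Scaling to the 75th percentile moved the median of all probes to 0.11. Signal over background limits the dim probes: 17 of 63 could not be tested.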

Other observations

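The base composition of the probes went with their detection. Of 24 collagen probes under 40% GC, 1 (4.17%) was well above background in all 21 fibers, that of Col22a1, beside 17.8% of all gene probes in that range. Between 40% and 50% GC 8 of 23 collagen probes (34.8%) were, beside 27.6%, and at 50% GC or more 5 of 16 (31.2%), beside 55.5%. The probes of Col1a1, Col2a1, Col4a5, Col5a2, Col8a1, Col11a1, Col12a1, Col17a1 and Col22a1, each the single probe of its gene, and both probes of Col10a1 and Col18a1 had a GC content of 35%. These values are a description, and the part of base composition in the detection of these genes was not tested.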
